A study of Mus musculus with 11 samples.

Results

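A chromatin pull-down of GFP-tagged Smchd1 from mouse neural stem cells, with the chromatin fragmented by micrococcal nuclease (MNase), gave 1 list of 2840 peak regions. All rows of that list were taken, and they make up 2840 of the 5036 peak regions in the 2 lists of the study, the other 2196 coming from sonicated chromatin. The MNase experiment used 5 libraries. The knock-in group, Smchd1 GFP/GFP, carried the GFP fusion on both alleles and held 1 male and 1 female library. The wild-type group had no tag, went through the same pull-down with an antibody to GFP, and also held 1 male and 1 female library, while input, whole cell extract, came as 1 library of female cells. All cells were C57BL/6 neural stem cell lines made from E14.5 embryos and kept for no more than 20 passages. The peaks are given as 1 pooled list with a start and an end for each region, so depth, spread between libraries and the value of a peak in tagged or untagged cells are unknown. Knock-in and wild-type cells therefore could not be tested against each other, and the way in which the 2 control groups entered the list is not stated. A peak list holds no expression values, so the labelled cell type was not checked by its markers.

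Smchd1 is a large chromatin protein of the structural maintenance of chromosomes family, with an ATPase domain and a hinge domain that binds nucleic acids. It is known for the silencing of the inactive X chromosome and of certain autosomal genes, among them imprinted genes, clustered protocadherins and Hox genes. Hox genes and many other homeobox genes encode transcription factors that pattern the embryo, and in cells that do not use them they are typical sites of Polycomb silencing.

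Outside the Hox genes, the sequences under the widest peaks that cover a promoter window are shown first, because they give the base composition that the list did not use. Each is the RefSeq promoter window of GRCm38.p6, the assembly also called mm10, from 250 bases before to 50 bases after the start, written 5′ to 3′ on the coding strand with CpG pairs in capitals. The first 5 windows lay whole inside a peak, and the last 2 belong to members of the same families that had no peak within 50 kb.
Hjurp chr1:88277530-88277829 (minus strand): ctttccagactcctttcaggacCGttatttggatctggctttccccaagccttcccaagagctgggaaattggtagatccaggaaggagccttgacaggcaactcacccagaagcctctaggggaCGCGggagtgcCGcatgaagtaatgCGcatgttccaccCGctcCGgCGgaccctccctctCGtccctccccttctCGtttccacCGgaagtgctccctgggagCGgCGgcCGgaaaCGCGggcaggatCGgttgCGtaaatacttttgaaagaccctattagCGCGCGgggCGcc
Evx2 chr2:74659508-74659807 (minus strand): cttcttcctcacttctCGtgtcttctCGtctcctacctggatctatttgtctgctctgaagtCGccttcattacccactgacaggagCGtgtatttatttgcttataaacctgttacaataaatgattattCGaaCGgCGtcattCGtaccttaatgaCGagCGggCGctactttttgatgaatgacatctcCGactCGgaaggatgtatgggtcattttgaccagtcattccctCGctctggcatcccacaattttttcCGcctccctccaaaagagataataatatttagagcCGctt
Efna5 chr17:62881268-62881567 (minus strand): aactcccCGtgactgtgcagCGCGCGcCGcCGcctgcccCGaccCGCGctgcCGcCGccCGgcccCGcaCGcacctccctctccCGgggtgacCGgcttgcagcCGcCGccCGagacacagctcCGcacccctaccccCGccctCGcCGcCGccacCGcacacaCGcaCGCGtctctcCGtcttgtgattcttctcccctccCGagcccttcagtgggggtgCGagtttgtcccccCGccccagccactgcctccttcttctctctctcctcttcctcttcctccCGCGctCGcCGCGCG
Nkx6-1 chr5:101664662-101664961 (minus strand): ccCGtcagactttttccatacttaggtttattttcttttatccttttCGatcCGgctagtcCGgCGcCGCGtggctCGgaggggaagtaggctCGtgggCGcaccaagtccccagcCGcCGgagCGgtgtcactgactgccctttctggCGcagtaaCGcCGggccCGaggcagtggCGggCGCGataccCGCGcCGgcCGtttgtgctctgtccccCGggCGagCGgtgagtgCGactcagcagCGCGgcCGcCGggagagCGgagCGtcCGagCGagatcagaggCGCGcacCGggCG
Alyref2 chr1:171503228-171503527 (plus strand): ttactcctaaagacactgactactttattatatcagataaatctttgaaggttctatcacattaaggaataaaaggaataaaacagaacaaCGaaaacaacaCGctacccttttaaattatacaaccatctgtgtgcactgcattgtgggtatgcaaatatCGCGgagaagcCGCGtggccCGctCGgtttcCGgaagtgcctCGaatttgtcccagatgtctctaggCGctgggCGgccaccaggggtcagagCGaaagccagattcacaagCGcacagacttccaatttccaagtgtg
Barhl1 chr2:28916619-28916918 (minus strand): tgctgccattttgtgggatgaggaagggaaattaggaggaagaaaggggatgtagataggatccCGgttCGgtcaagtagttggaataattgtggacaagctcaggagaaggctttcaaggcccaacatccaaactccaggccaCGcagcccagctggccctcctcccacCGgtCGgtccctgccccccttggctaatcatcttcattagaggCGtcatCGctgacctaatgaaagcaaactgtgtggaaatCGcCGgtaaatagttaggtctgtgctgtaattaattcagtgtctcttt
Efna1 chr3:89280902-89281201 (minus strand): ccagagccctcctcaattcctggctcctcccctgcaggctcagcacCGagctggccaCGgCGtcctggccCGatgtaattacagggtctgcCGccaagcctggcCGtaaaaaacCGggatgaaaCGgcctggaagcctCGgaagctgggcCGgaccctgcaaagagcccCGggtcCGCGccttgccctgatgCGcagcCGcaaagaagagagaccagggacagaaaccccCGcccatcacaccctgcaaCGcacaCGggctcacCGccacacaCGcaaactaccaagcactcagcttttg
Hjurp encodes a chaperone of the centromere histone, Evx2 a homeobox factor beside HoxD, Efna5 the axon guidance ligand ephrin-A5, Nkx6-1 a homeobox factor of ventral neural progenitors and Alyref2 an RNA export factor. The peaks over them were 6000, 4800, 4200, 4050 and 3150 bp wide, in that order. Their windows held 22, 16, 38, 40 and 14 CpG pairs. The window of Barhl1, a homeobox gene of the same list as Evx2, held 9, and that of Efna1, another ephrin gene, held 20.

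MicroRNA hairpins inside Hox clusters are shown because most of them lay under peaks. The mature 5p strands below carry the seed, bases 2 to 8, in capitals, with sequences from RefSeq.
mmu-miR-10a-5p: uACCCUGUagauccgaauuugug
mmu-miR-10b-5p: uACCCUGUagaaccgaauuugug
mmu-miR-196a-5p: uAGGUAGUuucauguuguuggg
mmu-miR-196b-5p: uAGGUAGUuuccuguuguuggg
Both members of the miR-10 pair had the seed ACCCUGU and both of the miR-196 pair the seed AGGUAGU. Mir10a and Mir196a-1 lie in HoxB on chromosome 11, Mir10b in HoxD on chromosome 2 and Mir196b in HoxA on chromosome 6. Their hairpins were overlapped by peaks of 1200, 1650, 3150 and 13800 bp. The peak at Mir196a-1 covered only part of the hairpin and ended within the 5p strand. Of the 5 annotated hairpins within Hox clusters, 4 were overlapped, the exception being Mir196a-2 in HoxC. Peaks filled much of these clusters: 87.15 kb beside a length of 105.5 kb in HoxA and 69.15 beside 96.9 kb in HoxD. The values were 70.35 beside 115.7 kb in HoxC and 54.75 beside 173.9 kb in HoxB. Whether hairpins differ from other sequence of the clusters was not tested. Over all 1005 hairpins with a sequence, 7 (0.697%) were overlapped. The other 3 were Mir6546, Mir7668 and Mir5133, each under a peak of 450 bp.

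Most peaks were narrow and lay alone. Their median width was 450 bp (quartiles 300 and 600 bp), and 1084 (38.2%) had the smallest width of 300 bp. Only 111 (3.91%) were wider than 1500 bp, up to 16200 bp. Together they covered 1.76 Mb. Neighbouring peaks lay a median of 370.8 kb apart, yet 671 of 2819 gaps (23.8%) were no longer than 10 kb and 107 neighbours adjoined without a gap. A stretch of enrichment could thus be split into several rows, so counts of peaks are given beside the bases they cover.

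A coding gene was counted as having a peak when one lay on its annotated span or within 5 kb. This held for 1151 of 21779 coding genes (5.28%, 95% Wilson interval 5% to 5.59%; intervals here cover counting error only). Of these, 860 had 1 peak, 143 had 2, and 148 (0.68% of coding genes) had 3 or more, with 83 genes at 5 or more and 18 at 10 or more. Neighbouring genes can share a peak, so genes are not independent of each other. Of the peaks, 1660 (58.5%) lay within 5 kb of a coding gene, and the windows so defined around coding genes made up 45.7% of the chromosome length.

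Genes of developmental transcription factors carried a large part of the list. Of 330 genes in 23 lists of transcription factor families, 119 (36.1%, interval 31.1% to 41.4%) had a peak and 61 (18.5%) had 3 or more. Their windows covered 13.9 Mb, 0.541% of the chromosome length, and held 390 peaks (13.7% of peaks) with 27.9% of all bases in peaks. Hox genes made up 38 of the 119. Without them, 81 of 291 genes (27.8%, interval 23.0% to 33.2%) had a peak, 28 (9.62%) had 3 or more, and the genes accounted for 237 peaks with 12.2% of the bases in peaks. Evx1 and Evx2, which lie beside HoxA and HoxD, are still counted among the 291, and Evx2 shares a peak of 6450 bp with Hoxd13. Coding genes outside these lists had a peak at 1032 of 21449 (4.81%). The share of members with a peak was above the 5.28% of all coding genes in each of the 13 homeobox lists and each of the 10 lists of other transcription factors, and the plot of all gene lists shows these shares. This was not particular to factors. It also held for 4 of 4 lists of neural adhesion and channels, 2 of 2 chromatin lists, 3 of 3 cell type lists and the imprinted list. Signal lists were above it in 4 of 7 cases, and sensory receptor lists in 0 of 3. Many lists are short and their intervals wide. Among the factor lists, the intervals of Hes and Hey, Klf and Sp, and Zic and Gli include 5.28%.

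**Figure D1:**
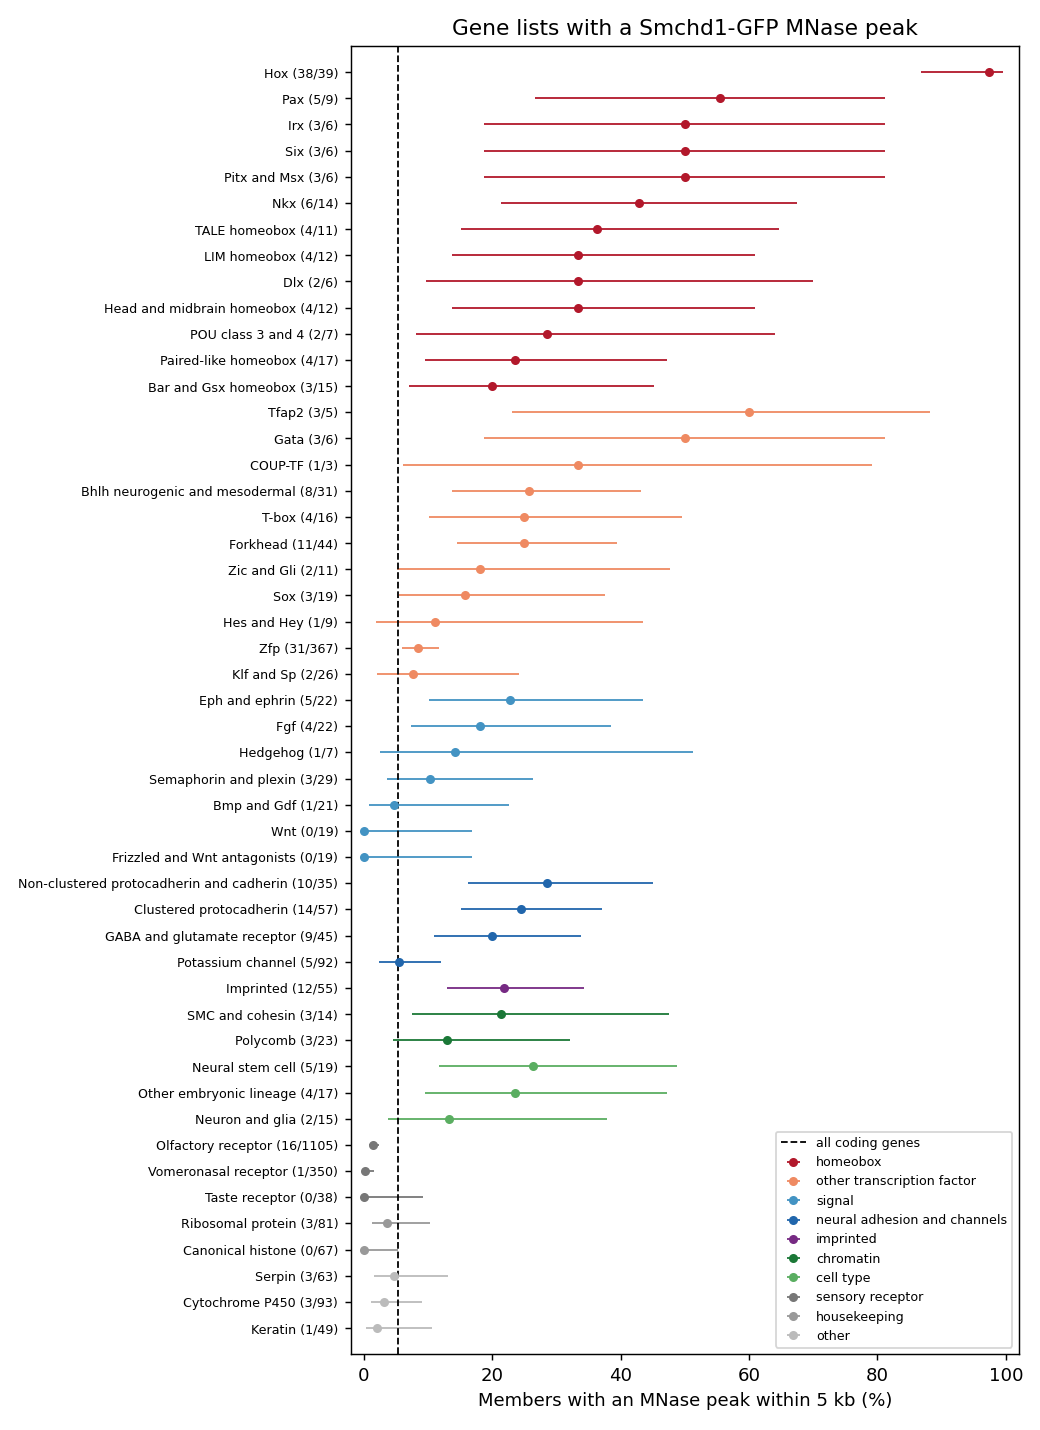
Share of each gene list with an MNase peak within 5 kb of the gene (x axis, percent), with 95% Wilson intervals; the number with a peak and the number of members follow each name and colours mark the role of the list. The dashed line is the share of all coding genes, 5.28%, and the homeobox lists in dark red all lie to its right, while olfactory, vomeronasal and taste receptors lie to its left.

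Among homeobox genes outside Hox, 43 of 121 (35.5%, interval 27.6% to 44.4%) had a peak, and 16 had 3 or more. Evx2 had 4 peaks with 15.75 kb and its HoxA counterpart Evx1 had 5 with 3.75 kb. Nkx6-1 had 7 peaks with 8.55 kb inside 11.85 kb, more bases than its own span of 5.53 kb. Nkx2-1, a factor of lung, thyroid and forebrain, had 4 peaks with 3.6 kb. The Nkx list stood at 6 of 14 members, but 4 of the 6 had their peaks only beside the gene, since 2 were left when the span itself had to be overlapped.

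Paired-box genes had a peak at 5 of 9 members. Pax3, a neural crest and muscle factor, had 9 peaks with 7.65 kb, and Pax9, a factor of pharyngeal pouches and teeth, had 7 with 5.1 kb. Pax2, which acts in kidney, eye and midbrain, had 5 peaks spread over 83.55 kb, Pax1 had 2 and Pax5 had 1 of 1800 bp. Pax6, the member that marks neural progenitors, had none within 5 kb. Iroquois genes had a peak at 3 of 6: Irx2 had 7 peaks with 3.75 kb, Irx1 had 2 with 3 kb and Irx5 had 2 with 1.5 kb. Sine oculis homeobox genes, which act in eye and placode development, also stood at 3 of 6, with Six3 and Six6 at 0.75 kb each.

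LIM homeobox genes had a peak at 4 of 12, led by Isl1, a motor neuron and heart factor, with 7 peaks and 6.3 kb. Lhx5 had 2 peaks, and Lmx1a and Lhx8 had 1 each. Of the Pitx and Msx list, Msx1, a factor of teeth and craniofacial bone, had 5 peaks with 5.1 kb inside 6.75 kb, and Pitx1 had 1. Dlx6, a craniofacial and interneuron factor, had 6 peaks with 3 kb, and Dlx2 had 2. Alx1 and Otp, paired-like genes of the face and of the hypothalamus, had 5 peaks and 4.95 kb each. In the list of TALE homeobox genes 4 of 11 members had a peak, led by Meis2, a Hox cofactor, with 4 peaks and 3.3 kb. The head and midbrain list had Vax2, En1, En2 and Otx1 among 12 members, none with more than 1.05 kb.

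Other transcription factor families, without the large zinc finger list, had a peak at 38 of 170 genes (22.4%, interval 16.7% to 29.2%), and 12 had 3 or more. Tfap2a, an AP-2 factor of face and epidermis, had 15 peaks with 13.65 kb inside 22.95 kb, the most peaks of any coding gene outside the Hox clusters. Tfap2b had 5 peaks with 2.7 kb and Tfap2c 2 with 1.2 kb, so 3 of 5 Tfap2 genes had a peak. Nr2f2, an orphan nuclear receptor of veins and interneurons, had 9 peaks with 18.6 kb inside 25.95 kb, while the other 2 members of the COUP-TF list had none. Gata4, a heart and endoderm factor, had 7 peaks with 7.35 kb, Gata3 had 5 with 3.6 kb and Gata6 had 2 with 0.75 kb. Of the T-box list, Tbx18, a factor of somites and heart lining, had 6 peaks with 5.85 kb, Tbx3 had 2, and Tbx20 and Tbx15 had 1 each of 16 members.

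Forkhead genes had a peak at 11 of 44 members. Foxa1, an endoderm pioneer factor, had 6 peaks with 5.1 kb, Foxd2 had 3 with 3.6 kb, Foxd1 had 3 with 3 kb and Foxp2 had 2 with 1.2 kb. Basic helix-loop-helix genes had one at 8 of 31: Hand2, a heart and limb factor, had 4 peaks with 3 kb, the proneural genes Neurog2 and Atoh1 had 2 each, and Bhlhe22 had 2. Sp8, a limb and forebrain factor, had 4 peaks with 3.9 kb, 1 of 2 members of the Klf and Sp list of 26 with a peak. Sox genes stood at 3 of 19 with Sox2, Sox17 and Sox5, and the 2 peaks at Sox2, a stem cell factor, lay beside the gene and not on its span. Zic1, a dorsal neural tube factor, had 3 peaks. The 367 zinc finger genes of the Zfp list had one at 31 (8.45%, interval 6.01% to 11.7%). Zfp503, a forebrain and limb regulator, had 4 peaks with 5.25 kb inside 5.85 kb. The next members, Zfp993, Zfp981 and Zfp978, lie together on chromosome 4.

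Genes with many peaks included short transcription factor genes and very long neural genes. Listed transcription factor genes are short, with a median span of 6.67 kb against 17.2 kb for all coding genes, and still had a peak often. Among genes under 10 kb, 44 of 167 listed factor genes outside Hox (26.3%) had a peak, against 169 of 7660 coding genes outside the factor lists (2.21%). From 10 to 50 kb the shares were 25.3% and 3.04%, from 50 to 200 kb 33.3% and 8.27%, and above 200 kb 50% (7 of 14) and 27.6%. The share of coding genes outside the factor lists was thus higher in each longer class, and listed factors were above it in all 4 classes. A long span can hold more peaks at the same density. Tfap2a had 436 peaks per Mb counted with its flanks, and Nkx6-1 had 451, whereas Dlg2, a synaptic scaffold gene with 10 peaks over 1502 kb, had 5.04. These densities were not set against that of the whole list, so 5.04 is not a background level.

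**Figure D2:**
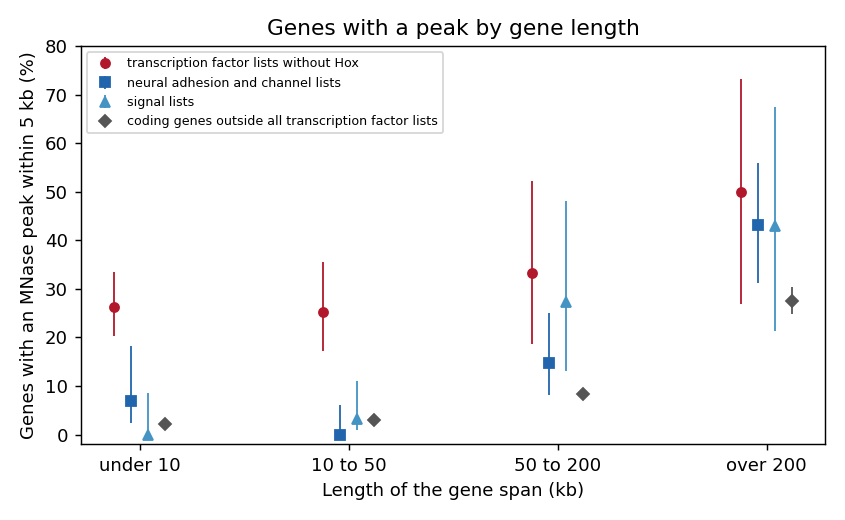
Share of genes with an MNase peak within 5 kb (y axis, percent) by length of the annotated span (x axis, kb) for 4 groups of genes, with 95% Wilson intervals. Listed transcription factor genes outside Hox (red circles) lie at 26.3% already under 10 kb, while genes of neural adhesion and channels (blue squares) reach 43.1% only above 200 kb. That last share counts Pcdha1 to Pcdha7 as separate genes although they share the same peaks.

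Neural adhesion molecules and channels had a peak at 38 of 229 genes (16.6%, interval 12.3% to 22%), 25 of them among the 58 members longer than 200 kb (43.1%). These 25 include Pcdha1 to Pcdha7, whose nested spans hold the same 7 peaks. Both shares thus count that locus more than once, and the intervals treat its genes as separate. Pcdh17, a protocadherin of forebrain circuits, was unlike the others: its 5 peaks held 10.95 kb inside 15.75 kb around its start, with 1 of 5100 bp. Pcdh7 had 6 peaks with 2.4 kb spread over 315.3 kb. Of the clustered protocadherins on chromosome 18, which give neurons their surface identity, 14 of 57 had a peak. All of these but Pcdhb2, which had 1 peak of 450 bp, shared the same few peaks through overlapping spans. Pcdha1 to Pcdha9 each had the same 7 peaks with 2.7 kb, and the readthrough records Gm37013, Gm38666 and Gm38667 had the same 10. Glutamate and GABA receptor genes had one at 9 of 45, among them Grm8 with 1 of 1350 bp. Potassium channel genes stood at 5 of 92, near the share of all coding genes, with Kcnh7 at 3 peaks.

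Signalling genes had a peak at 14 of 139 (10.1%, interval 6.09% to 16.2%). The families are short lists whose intervals overlap, and they were not tested against each other. Eph receptors and ephrins had a peak at 5 of 22 (interval 10.1% to 43.4%), and the 3 peaks at Efna5 held 5.25 kb inside 8.4 kb; Epha5 and Epha3 had 2 narrow peaks each. Fibroblast growth factors had one at 4 of 22, with Fgf9 at 2 peaks and 1.65 kb. Semaphorins and plexins stood at 3 of 29 and were led by Sema3a, a repulsive axon guidance gene, with 3 peaks. Bmp and Gdf genes had 1 of 21 (Bmp5) and Hedgehog pathway genes 1 of 7 (the receptor gene Ptch1). No Wnt gene (0 of 19) and no Frizzled or Wnt antagonist gene (0 of 19) had a peak, which allows a share of up to 15.8% in each list, a limit above the 5.28% of all coding genes. All 14 signalling genes with a peak were longer than 10 kb.

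Imprinted genes, expressed from a single parental copy, had a peak at 12 of 55 (21.8%, interval 12.9% to 34.4%). Zdbf2, a growth regulator of the hypothalamus, had 4 peaks with 2.55 kb inside 7.8 kb, and Usp29 on chromosome 7 had 2 with 0.9 kb. Snrpn, of the Prader-Willi region, had 5 peaks with 4.05 kb over 148.65 kb. Nnat lies within Blcap, and both had the same single peak of 450 bp. The list includes genes placed near each other, so its 12 members are fewer separate sites.

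Sensory receptor genes had a peak at 17 of 1493 (1.14%, interval 0.712% to 1.82%), below the share of all coding genes and also below the 3.12% of coding genes under 10 kb. Olfactory receptors had a peak within 5 kb at 16 of 1105, but a peak overlapped the gene itself at only 1 (Olfr1295). Vomeronasal receptors stood at 1 of 350 and taste receptors at 0 of 38, which allows up to 7.89%. Ribosomal protein genes stood at 3 of 81 (3.70%, interval 1.27% to 10.3%), among them Rpl13a and Rps28, a share whose interval includes that of all coding genes, and canonical histone genes at 0 of 67, which allows up to 4.48%. Keratins had 1 of 49 (Krt10), cytochrome P450 genes 3 of 93 and serpins 3 of 63, the latter all with peaks of 300 bp.

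Chromatin and cell type lists are short, and the share with a peak was above the 5.28% of all coding genes in each. It was 21.4% for the SMC and cohesin list (interval 7.57% to 47.6%) and 13% for Polycomb genes. The SMC and cohesin list counts Lrif1, the gene of a protein that binds Smchd1, and its share without Lrif1 was not taken. Genes of neural stem cells stood at 26.3%, those of neurons and glia at 13.3% and those of other lineages at 23.5%. The intervals of the Polycomb list (4.54% to 32.1%) and of the neuron and glia list (3.74% to 37.9%) include 5.28%. Smchd1 itself had no peak within 5 kb. Lrif1, whose protein binds Smchd1, had 2 peaks with 2.7 kb, the wider of 2250 bp and over the start; the SMC and cohesin list stood at 3 of 14 with Smc1b and Stag1 at 1 peak each. Polycomb genes had a peak at 3 of 23, with Suz12, Jarid2 and Phc1 at no more than 600 bp each. Of 19 genes of neural stem cells, 5 had one, and Nfib and Nfia, which promote glial development, Zbtb20 and Sox2 had 2 each. Of 15 genes of neurons and glia, Rbfox3 had 3 peaks and Syt1 had 1. Genes that mark other embryonic lineages had a peak at 4 of 17, namely Gata4, Gata6, Cdx2 and Sox17.

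Peaks gathered into groups along the chromosomes, and the largest groups lay at factor genes. With peaks no more than 10 kb apart joined, the list formed 2169 groups: 1938 single peaks (68.2% of peaks), 144 pairs and 87 groups of 3 or more, which held 614 peaks (21.6%) and 38.3% of the bases. A listed transcription factor gene lay within 5 kb of 37 single peaks (1.91%), 17 pairs (11.8%), 16 of 64 groups of 3 to 6 (25%) and 17 of 23 groups of 7 or more (73.9%, interval 53.5% to 87.5%). Longer groups reach more genes, and the share with any coding gene also went from 50.9% to 65.3%, 79.7% and 100%. Peaks were wider in larger groups, with means of 468, 618, 768 and 1319 bp. The last mean includes the largest Hox groups, such as HoxA with 49 peaks and 112.5 kb, and was not taken without them.

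**Figure D3:**
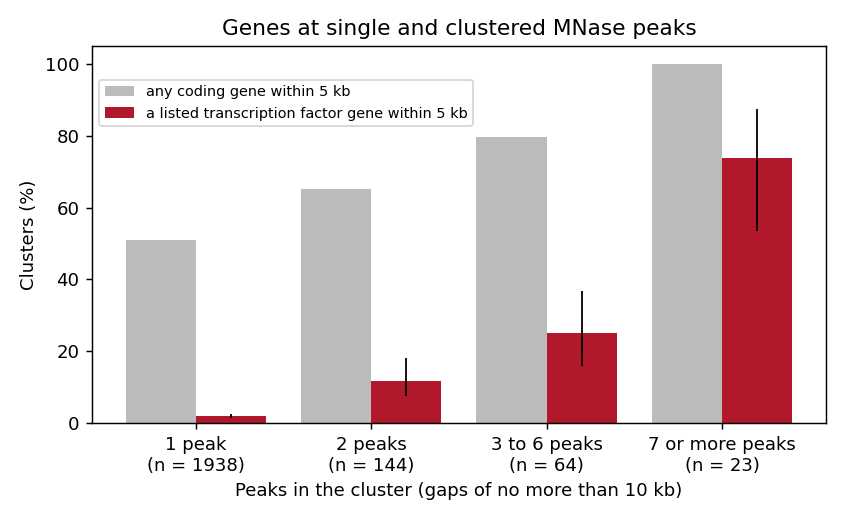
Share of peak groups (y axis, percent) with any coding gene (grey) or a listed transcription factor gene (red, with 95% Wilson intervals) within 5 kb, by the number of peaks in the group (x axis). The red bars go from 1.91% of single peaks to 73.9% of groups with 7 or more, and the grey bars from 50.9% to 100%.

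The 4 groups with most bases in peaks were the Hox clusters with their neighbours. HoxA with Evx1, at chr6:52152151-52321800, had 49 peaks with 112.5 kb, 66.3% of the stretch. Evx2 with HoxD, at chr2:74650651-74754150, had 30 peaks with 84.9 kb and the highest cover, 82.0%. HoxC, at chr15:102908401-103063350, had 61 peaks with 80.4 kb, and HoxB, at chr11:96250951-96361200, had 47 peaks with 47.25 kb. HoxB peaks were no wider than 2250 bp, those of HoxC no wider than 4650 bp, and those of HoxA and HoxD reached 13.8 and 12.9 kb. Hoxd1, at the end of HoxD, was the 1 Hox gene of 39 without a peak within 5 kb.

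Further large groups lay away from the Hox clusters, and that of Pax3 also reached the predicted gene Gm2102. Nr2f2 had 19 peaks with 25.05 kb at chr7:70330651-70384200, Tfap2a 16 with 13.95 kb at chr13:40712251-40743750 and Pax3 14 with 12.9 kb at chr1:78173551-78218850. Pcdh17 followed with 10.95 kb at chr14:84437851-84453600, Nkx6-1 with 8 peaks and 8.85 kb at chr5:101649751-101669850 and Onecut2, a liver and neuron homeobox factor, with 7 peaks and 8.55 kb at chr18:64330201-64345800. The single peak of 16.2 kb in Sfi1 was the only ungrouped peak with as many bases as these groups. Regions of repeated sequence were not removed here, and the part of repeats in that peak was not tested.

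Of the 87 groups of 3 or more, 54 had no listed factor gene. Some examples of these, picked out after their values were seen and not a class that was counted, lay at Sim1, a factor of the hypothalamus, and at Fezf1, Prdm13, Prdm8, Bcl11a and Zfhx4. Sim1 had 5 peaks with 5.1 kb, Prdm13 had 5 with 4.65 kb and Bcl11a had 4 with 3.9 kb. Plag1, a growth-promoting zinc finger gene, had 8 peaks within 23.7 kb. Lin28b, an RNA-binding regulator of let-7, had 8 within 31.2 kb. Tchh, a structural gene of hair follicles, had 7 peaks that filled 6.6 kb of 8.1 kb. Skap1, an adaptor gene of T cells that lies beyond HoxB, had 10 peaks over 117.9 kb. The gene 4930447C04Rik, also named Six6os1, had 10 over 33.75 kb. Of the 54 groups, 13 had no coding gene within 5 kb.

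The layout around the starts of factor genes differed from gene to gene. Distances were taken from the outermost start site that the RefSeq promoter windows give for a gene, with 40 kb on each side. For Tfap2a, Pax9 and Irx2 the annotated span begins 3.32, 3.78 and 4.39 kb before that start, and counts from the span boundary, a choice made after seeing the data, are given beside theirs. Tfap2a had 14 of 16 peaks downstream, 1 over the start and 1 upstream, or 15 downstream and 1 upstream from the span boundary. Nr2f2 had 16 of 19 downstream, the last at 36.1 kb, and its widest peak began 0.85 kb from the start. Pax9 had 6 of 10 upstream, the farthest at 21.3 kb, but from the span boundary 4 lay upstream and 6 downstream, so the side with more peaks depends on the start used. Irx2 had 4 upstream, 3 downstream and 1 over the start, but from the span boundary 1 lay upstream and 7 downstream. Nkx6-1 and Isl1, whose starts are the span boundary, had 3 and 2 upstream, 4 each downstream and 1 each over the start.

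**Figure D4:**
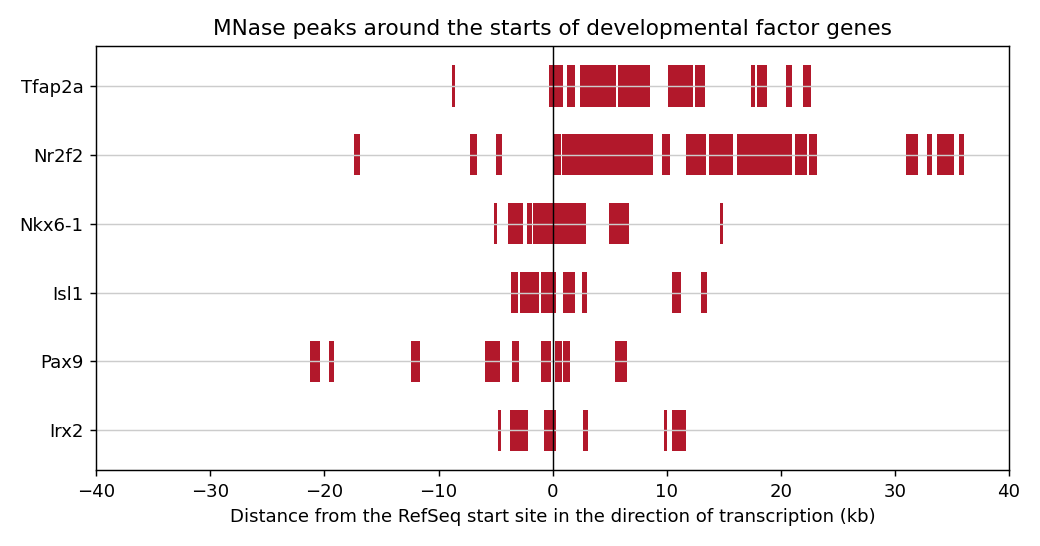
MNase peaks (red bars, to scale) around the outermost RefSeq start site of 6 transcription factor genes, by distance in the direction of transcription (x axis, kb); each row is 1 gene and the vertical line marks the start. Tfap2a and Nr2f2 have most bars to the right of the start, 14 of 16 and 16 of 19; the starts of Tfap2a, Pax9 and Irx2 lie 3.32 to 4.39 kb inside the annotated span.

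Peaks over 1500 bp made up a larger share at gene starts than elsewhere, though a wide peak can reach a start by its size alone. Hox clusters, where starts lie close together, are counted in these shares, and no share was taken without them. The widest peak at a start, of 13800 bp, lay in HoxA. Within 1 kb of a coding start, taken from the promoter windows where these are given, lay 476 of 2840 peaks (16.8%), with a median width of 600 bp; 13.9% of them had the smallest width and 13.2% exceeded 1500 bp. A further 938 peaks (33.0%) lay in a gene span and 246 (8.66%) in the 5 kb beside one. Their median widths were 450 and 600 bp, the latter the same as at starts, and 2.99% and 3.25% exceeded 1500 bp. The widest peak, of 16200 bp, lay in a span. The 1180 peaks (41.5%) beyond 5 kb of coding genes had a median of 300 bp, 55.3% had the smallest width and 1.02% exceeded 1500 bp. Where the strand was known, 408 peaks lay up to 10 kb before a start and 429 up to 10 kb after it. The kilobase on either side of the start held 142 and 138 peaks, and counts were lower with distance on both sides. Over 2744 peaks the median distance to a start was 51.5 kb, and 39.5% lay beyond 100 kb.

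Promoters under a peak were rich in CpG. Of 17492 coding genes with a RefSeq window, 186 (1.06%) had a window overlapped by a peak, in 200 of 21263 windows. Observed over expected CpG, which is near 1 where CpG pairs have not been lost, had a median of 0.78 (quartiles 0.61 and 0.90; SD 0.24) in these windows and 0.56 (quartiles 0.22 and 0.83; SD 0.34) in the rest. The ratio exceeded 0.6 in 75.5% and 47.4%. Among listed factor genes outside Hox, the medians were 0.76 in 19 windows with a peak and 0.68 in 226 without, and the latter were thus also above the windows of all genes without a peak. Median G+C content was 61% with a peak and 56.3% without. The motif GGGCGG, read on both strands, was found in 62.5% of windows with a peak and 46.2% of all windows, CCAAT in 48% and 38.2%, and TATAAA in 9% and 12.6%. These matches describe letters in the window and are not sites of binding.

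**Figure D5:**
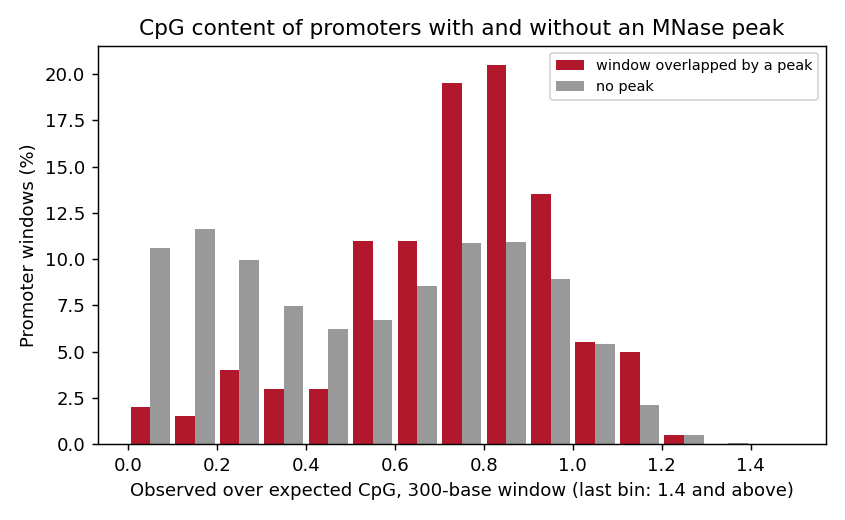
Promoter windows (y axis, percent of each set) by observed over expected CpG (x axis) for 200 windows overlapped by an MNase peak (red) and the other windows (grey). Red bars are highest between 0.7 and 0.9, at 19.5% and 20.5%, and grey bars have another maximum below 0.3.

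Long non-coding RNA genes had a peak within 5 kb at 427 of 12639 (3.38%). The 5 records with most peaks outside the Hox genes lie at or near factor genes. Gm26688, also named Tfap2a-as1, had 9 peaks and Gm29683 beside Nr2f2 had 7. Sfta3-ps, beside Nkx2-1, had 8. Dlx6os1 at Dlx6 had 7, and Hottip, at the end of HoxA, had 6 with 17.1 kb. Transcripts named as lying opposite a coding gene had one at 22 of 212 (10.4%), or 18 of 208 (8.65%) without Hox. Of the 22, 19 had a named partner with a peak of its own, such as Foxd2os and Foxd2 or Hand2os1 and Hand2. The exceptions were the partners of Nkx2-2, Igf1 and Zmiz1. Overlapping genes share these peaks, and a peak cannot be assigned to 1 strand.

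Genes of transfer RNAs, chosen after their values were seen, were overlapped at a higher share than other short non-coding genes. A peak overlapped 30 of 403 tRNA genes (7.44%, interval 5.26% to 10.4%), against 3 of 997 small nuclear RNA genes (0.301%), 0 of 1330 small nucleolar RNA genes and 8 of 1228 annotated miRNA genes (0.651%). The 21 peaks involved were 300 to 1050 bp wide with a median of 600 bp, 7 of them held 2 or more tRNA genes, and 2 lay within 1 kb of a coding start. The regions rich in tRNA genes were not alike. On chromosome 1 from 171033942 to 171111515, 6 of 25 were overlapped. On chromosome 13, 8 of 59 were overlapped from 21160785 to 22050767 and 6 of 45 from 23270421 to 23530419. On chromosome 6 from 47978997 to 48363603, 0 of 49 were, and on the X 0 of 13. By amino acid, genes for methionine (4 of 16), leucine (5 of 25), glutamate (4 of 20) and glutamine (3 of 16) were overlapped most often. Of the 20 kinds, 8 had none overlapped, the largest being cysteine (0 of 56) and arginine (0 of 24). These counts are small and not separate, since 1 peak lay on 1 methionine and 2 leucine genes, and the kinds were not tested against each other. The peak beside Hes7, the 1 member of the Hes and Hey list with a peak, was among the 21 peaks: it lay on 2 tRNA genes of chromosome 11. No sonication peak overlapped a tRNA gene.

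Overlap with the sonication list was small and lay at wide peaks. Of the MNase peaks, 47 (1.65%, interval 1.25% to 2.19%) overlapped a sonication peak by at least 1 bp, which is 49 peaks or 2.23% of that list and 2.98% of its 1646 autosomal peaks. Hox clusters held 21 of the 47. The others included peaks at Tfap2a, Tfap2b, Nr2f2, Msx1, Pcsk2, Snrpn and Grb10. Their median width was 1350 bp, against 450 bp for the rest. Of MNase peaks over 1500 bp, 20 of 111 (18%) were shared, and of those at the smallest width 2 of 1084 (0.185%). A wide peak can overlap by its size alone. The lists differ both in how chromatin was broken and in the sexes used, and these cannot be told apart.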

How the data were processed

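The MNase pull-down used 2 Smchd1 GFP/GFP, 2 wild-type and 1 whole cell extract library. The authors deposited 1 peak list for all 5, and per the file headers it gives chromosome, start and end. A column of the deposited list names SeqMonk. Per the submitters' processing notes, Bowtie 0.12.9, MACS2 and bcl2fastq were used with build mm10; their roles are not given in the sources. Depth is unknown. Deposited peaks start on a grid of 150 bp, are at least 300 bp wide and may hold repeated sequence, which limits widths and can add peaks.

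Gene spans, promoter windows (17492 of 21779 coding genes) and miRNA sequences came from RefSeq tables of GRCm38.p6. The 340 records in the first 3 Mb of chromosomes were left out, and 49603 were used. Genes without a strand were given both boundaries as starts. A gene had a peak when one lay within 5 kb, and peaks no more than 10 kb apart formed a group. No test was run, as the list has no value per library. Shares carry 95% Wilson intervals, and a count of 0 allows 3 counts of the total. In all, 49 gene lists were counted, and 55 of 56 imprinted names were found.

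The experiment and the lists were chosen with earlier results of these data known. Named genes were the 20 coding genes outside Hox with most peaks, the 12 groups with most bases, up to 4 members of each list by bases, Hox as a group, 5 non-coding records and Smchd1; some genes that the rule selects are not reported here. Factor genes outside the lists, tRNA genes, opposite-strand transcripts and some further list members were added after their values were seen. Alternatives were other distances, peaks wider than 300 bp, joined peaks and other overlaps. Python 3.11.15, pandas 2.3.3, numpy 2.4.6, statsmodels 0.14.6 and matplotlib 3.10.9 were used, and the counting was tested on simulated data.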

Additional observations from a re-analysis of the deposited data

How the results depend on the processing

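The pooled list sets the limits: it has no value, depth or score per library, so no library could be left out, and its smallest peaks could not be ranked by strength. No paired analysis was possible because the 5 libraries enter 1 list and no comparison of groups came from a test. Coding genes with a peak numbered 2453 within 50 kb, and between 878 and 994 with an overlap of the span, a distance of 1 kb or wider peaks only. Genes with 3 or more peaks fell to 98 of 148 with peaks within 1 kb joined. The share of transcription factor genes was 30% with an overlap of the span, 42.4% within 50 kb and 27.8% without Hox; coding genes outside the lists stood at 3.73%, 10.8% and 4.81%, so the order held. Groups of 3 or more numbered 67 and 112 with gaps of 1 and 50 kb. Peaks at a start were 6.55% when the start had to be covered, 32.9% within 5 kb and 23.3% among peaks wider than 300 bp. Overlap with sonication was 4.93% within 5 kb. Within 1 and 5 kb, 55 and 86 tRNA genes had a peak, distances chosen after seeing the data. Of the 49 lists, 33 kept a count within 1.5 times at 50 kb and 41, 44 and 43 at 0 kb, 1 kb and with wider peaks. Olfactory receptors went from 16 to 1, 5, 119 and 2 in the order 0, 1 and 50 kb and wider peaks. Within 50 kb vomeronasal receptors went from 1 to 27 of 350 and canonical histones from 0 to 13 of 67. The share of all coding genes at that distance was 11.3%. Olfactory receptors, at 119 of 1105, were then near it, histones above it and vomeronasal receptors below it. The low shares of olfactory receptors and histones thus did not hold within 50 kb. Forkhead genes were 7 and basic helix-loop-helix genes 4 at 0 kb.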

Other observations

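Of the peak groups with 3 or more members, 13 had no coding gene within 5 kb, and they are described here by place alone. The one with most bases, 5 peaks with 5.4 kb at chr13:116705551-116715000, lies on the same chromosome as Isl1 and has no annotated gene within 5 kb. A group of 4 peaks with 4.95 kb at chr8:123625351-123631950 filled 75% of its stretch and lies beside annotated ribosomal RNA records. A group of 4 with 2.55 kb at chr13:21160651-21170250 lies on tRNA genes. Further groups were at chr11:117471601-117481050 (3 kb in 3 peaks), chr6:51170851-51185400 (2.7 kb in 3 peaks) and chr9:3015001-3032700 (2.25 kb in 4 peaks). The last starts close to the assembly gap at the chromosome end, and repeated sequence was not tested.

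On the Y chromosome the list had 2 peaks of 600 bp, from 258901 to 259500 and from 11857801 to 11858400, with no coding gene within 5 kb. Of the 10 peaks on the X, 2 were 600 bp wide, 1 was 450 bp and the rest had the smallest width. Tmem28 was among the few X genes within 5 kb of one.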
